A study of Mus musculus with 9 samples.

Results

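The nuclear genes of the mitochondrial respiratory chain were examined in orthotopic mammary tumours of 3 models, HR1, LM1 and LM9. Members were chosen by symbol, as genes beginning with *Nduf*, *Uqcr* or *Atp5*, the 4 genes *Sdha* to *Sdhd*, and genes named *Cox4* to *Cox8* followed by a letter. Of the 14108 genes listed for every tumour, 88 met this rule. They comprised 36 genes of complex I, 8 complex I assembly factors, 4 genes of complex II, 8 of complex III, 15 of complex IV, 16 of complex V and 1 pseudogene. All 88 passed the filter on low counts.

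HR1 (LB-mHR1) is a mammary cancer cell line from 1 tumour of a transgenic mouse in which the CAG promoter, active in most cell types, drove *PIK3CA* H1047R. LM1 and LM9 are single lines grown out of lung metastases of HR1 cells that had been mutagenised with the *piggyBac* transposon and injected into mice, so that all 3 groups carry the transgene and LM1 and LM9 also carry transposon insertions. For each line, 250000 cells in Matrigel were injected into the mammary fat pad of female mice labelled NOD.CB17-Prkcd<scid>/J (NOD/SCID) and aged 4 to 8 weeks, and GFP+ cells were sorted from tumours taken below 1500 mm3. Each model was represented by 3 tumours (*n* = 3), and the study set the lines apart by the transcription factor *Nfib*, low in HR1 and high in LM1 and LM9.

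Each tumour had between 32393958 and 46681945 counted reads over the listed genes. The tumour labelled HR1 replicate 1 stood apart. Its *Nfib* level was 1343 CPM (counts scaled to a fixed library total, the unit of all levels here), against 23.9 and 18.3 CPM in the other HR1 tumours and 421 to 791 CPM in LM1 and LM9, and the counts against HR1 are therefore given with and without it, as are values of single genes where leaving it out made or ended a call, turned the direction of a called value or moved it by over 1.5 times. The 6 listed mammary epithelial markers summed to 7.55 to 121 CPM in HR1, 158 to 181 CPM in LM1 and 14.4 to 18.0 CPM in LM9, and 3 of them fell in LM9 versus LM1. The luminal markers were scarce in every group, with *Epcam* at no more than 4.49 CPM and *Krt18* at no more than 2.48 CPM, whereas the basal keratin *Krt14* made up most of the sum in LM1 (up to 175 CPM). The summed level of 7 fibroblast genes was 22039 to 35156 CPM in HR1, 10357 to 13780 CPM in LM1 and 8971 to 10533 CPM in LM9, that of the 7 listed leukocyte markers 145 to 560.0 CPM, 121 to 124 CPM and 183 to 216 CPM. Although the leukocyte sum was higher in LM9 than in LM1, 5 of the 7 fold changes were negative there (median log2 value -0.41) and 1 marker rose. The summed endothelial markers were at 5.30 to 23.6 CPM in HR1, 163 to 226 CPM in LM1 and 252 to 290.1 CPM in LM9, and those of red cells at 19.0 to 166 CPM, 13.7 to 44.9 CPM and 4.78 to 11.8 CPM. The 4 endothelial markers went both ways, with 2 positive and 2 negative fold changes in each LM model versus HR1. In LM9 versus HR1, 2 of them rose and 1 fell. The part of these cells in the results was not tested. In these bulk samples, fewer cells of a type and less RNA per cell cannot be told apart.

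The respiratory chain carries electrons from NADH (complex I) and succinate (complex II) through complex III and cytochrome *c* to complex IV, which hands them to oxygen. Complexes I, III and IV pump protons across the inner mitochondrial membrane, and complex V, the ATP synthase, uses the returning protons to make ATP. Most subunits are encoded in the nucleus and imported, and tumours differ in how far they draw ATP from this chain or from glycolysis. Of the 13 subunits encoded in mitochondrial DNA, 0 are listed here, so the values concern the nuclear subunits alone.

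The transcription factors NRF1 and GABPA are known regulators of nuclear respiratory chain genes. Promoters from RefSeq (GRCm38.p6, from 250 bases before to 50 bases after the start) were found for 72 members, 77 promoters in all. The NRF1 core GCATGCGC, searched on both strands, lay in 11 of the 77 (14.3%), against 2.71% of all 32851 promoters and 4.78% of the promoters of listed genes. The ETS letters CCGGAAG bound by GABPA lay in 24.7% of member promoters, against 8.86% of all and 16.2% of those of listed genes. By contrast, the hypoxia response core ACGTG lay in 22.1% of member promoters, between the 19.6% of all and the 24.7% of those of listed genes, and the E-box CACGTG, which contains it, in 9.09%, between 7.15% and 9.66%. Median fold changes of the 11 members with the NRF1 core lay close to those of the 61 members without it, at -0.54 against -0.61 (log2) in LM9 versus HR1 and -0.67 against -0.55 in LM9 versus LM1. In these contrasts 3 against 30 and 5 against 14 of them fell at an adjusted p below 0.05, where 21.9% and 10.6% of all genes fell. The medians in LM1 versus HR1 were 0.08 and -0.06, with 0 against 9 fallen and 1 against 0 risen (18.7% and 16.7% of all genes). A match is a description of letters and not a binding site.

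The 250 bases before the start are shown for a complex II subunit (*Sdhb*), an assembly factor (*Ndufaf4*) and a complex IV subunit (*Cox6a1*) that hold the NRF1 core there. *Ndufa4*, which had the lowest LM9 to HR1 ratio of the complex IV genes, is shown beside them and holds neither the NRF1 core nor the ETS letters in this window. Capitals mark the NRF1 core and, in *Cox6a1*, also the ETS letters nearest the start. The core began 54 bases before the start in *Sdhb*, 113 bases before it in *Ndufaf4* and 162 bases before it in *Cox6a1*, where it overlaps a copy on the opposite strand, as it does in *Ndufaf4*.
Sdhb promoter (chr4:140961021-140961270, plus strand): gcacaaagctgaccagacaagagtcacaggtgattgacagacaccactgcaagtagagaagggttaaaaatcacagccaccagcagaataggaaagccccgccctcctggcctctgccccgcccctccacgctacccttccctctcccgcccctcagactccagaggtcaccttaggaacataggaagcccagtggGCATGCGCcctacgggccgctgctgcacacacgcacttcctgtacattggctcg
Ndufaf4 promoter (chr4:24897833-24898082, plus strand): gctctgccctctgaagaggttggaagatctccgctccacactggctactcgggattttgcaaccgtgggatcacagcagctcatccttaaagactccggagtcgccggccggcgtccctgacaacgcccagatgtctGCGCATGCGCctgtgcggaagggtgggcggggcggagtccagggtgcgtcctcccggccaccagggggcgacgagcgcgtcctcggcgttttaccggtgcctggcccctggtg
Cox6a1 promoter (chr5:115348959-115349208, minus strand): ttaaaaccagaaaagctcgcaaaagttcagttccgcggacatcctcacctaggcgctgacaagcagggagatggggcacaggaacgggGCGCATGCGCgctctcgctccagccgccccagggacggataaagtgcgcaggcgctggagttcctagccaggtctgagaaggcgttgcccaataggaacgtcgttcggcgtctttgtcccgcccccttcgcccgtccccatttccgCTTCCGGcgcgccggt
Ndufa4 promoter (chr6:11907451-11907700, minus strand): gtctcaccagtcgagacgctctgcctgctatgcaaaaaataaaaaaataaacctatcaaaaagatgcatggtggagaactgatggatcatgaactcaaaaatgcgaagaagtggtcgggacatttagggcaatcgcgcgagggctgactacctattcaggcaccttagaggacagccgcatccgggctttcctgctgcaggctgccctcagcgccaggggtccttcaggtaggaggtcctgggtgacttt

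To see how the chain as a whole differed between the models, the levels of all members were summed in each tumour. The sum was 19355, 16545 and 14545 CPM in HR1, 15716, 13016 and 17298 CPM in LM1 and 10922, 12994 and 12575 CPM in LM9. The 3 LM9 tumours were the 3 lowest of the 9, although LM9 replicate 2 lay just under LM1 replicate 2, and the LM1 and HR1 tumours overlapped. The mean ± s.d. was 16815 ± 2416 CPM in HR1, 15343 ± 2165 CPM in LM1 and 12163 ± 1096 CPM in LM9 (*n* = 3 each). Per kilobase of exon, among the 81 members with a mean of at least 5 CPM, the median level was 86.9 CPM per kb in HR1, 81.2 in LM1 and 54.1 in LM9. *Atp5b*, the catalytic β subunit of the ATP synthase, was the highest per kilobase in HR1 and LM1, and *Ndufa4l2* was the highest in LM9.

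**Figure D1:**
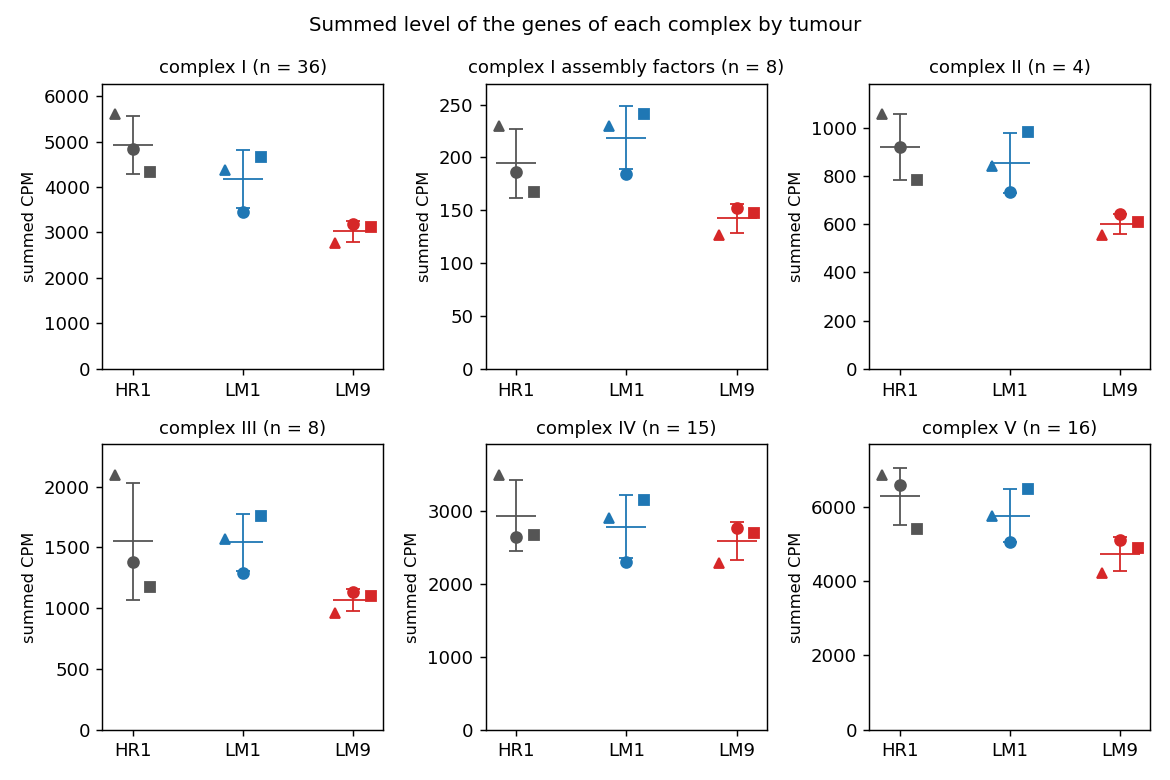
Summed level in CPM of the genes of each complex in the HR1, LM1 and LM9 tumours (triangle, circle and square for replicates 1, 2 and 3; bars show mean ± s.d.). The 3 LM9 tumours lie below all others for complexes I, II and III and for the assembly factors, whereas for complex IV, whose sum includes *Ndufa4l2*, the groups overlap.

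Gene by gene, the members called in LM9 were nearly all lower there. Against HR1, 40 of 88 members fell and 1 rose at an adjusted p below 0.05, where 21.9% of all tested genes fell and 20.4% rose (edgeR's quasi-likelihood test, Benjamini-Hochberg adjustment over 14086 genes). The median log2 fold change over all 88 was -0.60, against -0.05 over all genes, and 85 of 88 values were negative. The 41 calls in both directions stood beside 42.3% of all genes called. With HR1 replicate 1 left out, 37 members fell (27.8% of all genes) and 3 rose (27.9% of all genes), with a median of -0.36. Of the 88 values 73 were then negative, and 37 of the 41 genes called with all tumours were called again. Without LM9 replicate 1 the number called was 20 (26.7% of all genes), and without LM9 replicate 3 it was 25 (29.1% of all genes).

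In LM9 versus LM1, which does not use the HR1 tumours except in the estimate of spread, 24 of 88 members fell and 0 rose, where 10.6% of all genes fell and 11.5% rose. The median was -0.57, against 0.00 over all genes, and 80 of 88 values were negative. In 60 of 88 members every LM9 tumour was lower than every LM1 tumour, as it was in 31.1% of all genes. The number of calls moved with the tumours included: 57 fell without HR1 replicate 1 (22.5% of all genes), and 69 were called when the LM1 and LM9 tumours were fitted alone (56.3% of all genes), but after any LM9 tumour, LM1 replicate 1 or LM1 replicate 3 was left out, 4 to 6 were called (8.16% to 10.3% of all genes). The median stayed between -0.69 and -0.47 whichever tumour was left out.

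Fewer members were called between LM1 and HR1. Of the 88, 10 fell and 2 rose in LM1, where 18.7% of all genes fell and 16.7% rose. The median was -0.06. Without HR1 replicate 1 the count of members that rose went from 2 to 21 (26.9% of all genes) while 10 still fell (26.0% of all genes), and the median turned to 0.15. All 12 genes called with all tumours were called again. In LM1 and LM9 together versus HR1, 26 members fell (23.7% of all genes) and 1 rose (19.9% of all genes), with a median of -0.30. With HR1 replicate 1 left out, 24 fell and 7 rose (56.0% of all genes in both directions) and the median was -0.13. The contrasts with HR1 share the same HR1 tumours and are not independent.

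In HR1 replicate 1 itself, 62 members were higher than in both other HR1 tumours and 15 were lower. Its median log2 ratio to the other HR1 tumours was 0.38 over the members (0.77 over the 20 under 1000 bases of exon), 0.44 over 78 cytosolic ribosomal protein genes, 0.03 over 77 mitochondrial ribosomal protein genes and -0.04 over all genes.

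**Figure D2:**
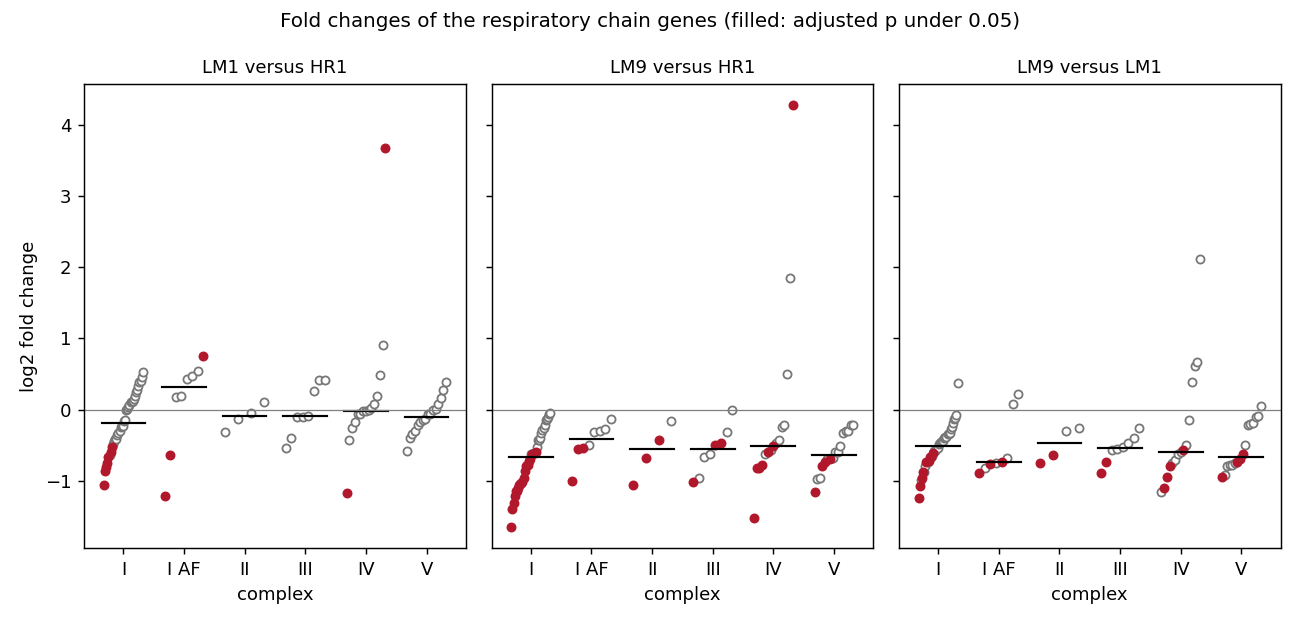
Log2 fold change of each respiratory chain gene by complex (AF, assembly factors) in LM1 versus HR1, LM9 versus HR1 and LM9 versus LM1; filled points had an adjusted p below 0.05 and black lines are medians. All complexes have a negative median in both LM9 contrasts, and the high filled point in complex IV is *Cox6a2*.

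Complex I, the NADH dehydrogenase, held the most members that fell. Its summed level was 5601, 4829 and 4327 CPM in HR1, 4384, 3448 and 4670 CPM in LM1 and 2759, 3189 and 3126 CPM in LM9, and all 3 LM9 tumours were below all others. In LM9, 21 of 36 genes fell and 0 rose against HR1 (median -0.66), 9 fell against LM1 (median -0.51), and in LM1 versus HR1 7 fell (median -0.19), where 21.9%, 10.6% and 18.7% of all genes fell. Short genes at large were lower in LM9, and with this trend of fold change with exon length removed, 17 fell against HR1 (median -0.35) and 5 against LM1 (median -0.30). When HR1 replicate 1 was left out, the numbers that fell were 22, 24 and 7, and 1, 1 and 7 genes then rose. In that fit 27.8%, 22.5% and 26.0% of all genes fell, and 26.9% rose in LM1 versus HR1. Both complex I shares in LM1 versus HR1 lay below these.

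Of its catalytic core, *Ndufv1* (chr19:4007384-4012806, mm10), which binds FMN and NADH, stood at 235, 286 and 284 CPM in the HR1 tumours, 139.8, 128 and 176 CPM in LM1 and 117, 131 and 126 CPM in LM9. HR1 did not overlap with either LM model, while LM1 and LM9 overlapped. The log2 fold change was -0.86 ± 0.16 (edgeR adjusted p = 0.00364) in LM1 and -1.10 ± 0.16 (edgeR adjusted p = 0.00102) in LM9, and -0.94 (edgeR adjusted p = 0.000496) and -1.19 (edgeR adjusted p = 0.000121) without HR1 replicate 1.

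*Ndufs1*, the largest core subunit with iron-sulphur clusters, was at 79.0, 143 and 124 CPM in the HR1 tumours, 110.1, 115 and 119 CPM in LM1 and 88.0, 95.1 and 91.6 CPM in LM9, and no contrast passed the test (LM9 versus HR1 -0.33 ± 0.20, edgeR adjusted p = 0.204). HR1 replicate 1 held the lowest of its 9 values, and without it the same contrast was -0.54 (edgeR adjusted p = 0.00267). The other core subunits divided in the same way. *Ndufv2* (-0.96) and *Ndufs8* (-0.78) fell in LM9 versus HR1, whereas *Ndufs3* (-0.07 ± 0.17, edgeR adjusted p = 0.774) and *Ndufs7* (-0.13 ± 0.22, edgeR adjusted p = 0.662) did not pass.

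The *Ndufb* genes encode accessory subunits of the membrane arm, and 9 of the 10 listed fell in LM9 versus HR1, as did 21.9% of all genes. *Ndufb4* (chr16:37647170-37654453) showed the lowest ratio of all members in that contrast, with 24.7, 20.8 and 19.0 CPM in the HR1 tumours, 10.9, 7.97 and 12.1 CPM in LM1 and 5.56, 7.69 and 7.31 CPM in LM9. Every HR1 tumour was above every LM1 and LM9 tumour. The log2 fold change was -1.06 ± 0.22 (edgeR adjusted p = 0.00691) in LM1 and -1.65 ± 0.23 (edgeR adjusted p = 0.000882) in LM9 versus HR1, and 18.3% of its 50-base windows recur in another gene, so reads could have been shared with copies. When HR1 replicate 1 was left out, it also fell in LM9 versus LM1 (-0.59, edgeR adjusted p = 0.033), as did *Ndufs1* (-0.33, edgeR adjusted p = 0.023) and *Ndufv2* (-0.44, edgeR adjusted p = 0.02).

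*Ndufb7* was at 216, 96.7 and 115 CPM in the HR1 tumours, 168, 116 and 155 CPM in LM1 and 62.1, 74.4 and 71.5 CPM in LM9. It fell in LM9 against both HR1 (-1.04 ± 0.29, edgeR adjusted p = 0.0203) and LM1 (-1.08 ± 0.29, edgeR adjusted p = 0.0309), and the LM9 tumours were below all others. In the fit without HR1 replicate 1, its highest tumour, LM9 versus HR1 was -0.61 (edgeR adjusted p = 0.0119) and it rose in LM1 versus HR1 (0.48, edgeR adjusted p = 0.0394). *Ndufb6*, the tenth of the group, was at 129, 96.8 and 55.0 CPM in the HR1 tumours, 126, 96.7 and 132 CPM in LM1 and 52.5, 67.5 and 62.9 CPM in LM9, where HR1 replicate 3 lay within the LM9 range. It fell against LM1 (-0.96 ± 0.28, edgeR adjusted p = 0.0422), and its value against HR1 was -0.62 ± 0.28 (edgeR adjusted p = 0.107), or -0.31 (edgeR adjusted p = 0.272) without HR1 replicate 1, where it rose in LM1 versus HR1 (0.65, edgeR adjusted p = 0.0439).

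*Ndufc1* (chr3:51404677-51408988), a small accessory subunit, was at 110.4, 43.5 and 52.6 CPM in the HR1 tumours, 70.6, 47.6 and 66.2 CPM in LM1 and 24.0, 25.9 and 28.2 CPM in LM9. LM9 lay below every other tumour. It had the lowest LM9 to LM1 ratio of the called members (-1.24 ± 0.33, edgeR adjusted p = 0.0292), and its log2 fold change versus HR1 was -1.40 ± 0.33 (edgeR adjusted p = 0.0102), or -0.88 (edgeR adjusted p = 0.00227) without HR1 replicate 1, which had the highest of all its values. Members of complex I that were called in no contrast included *Ndufa6*, *Ndufs7* and *Ndufv3*. *Ndufv3* was the 1 complex I gene with a positive LM9 versus LM1 value (0.38 ± 0.21, edgeR adjusted p = 0.212), which passed without HR1 replicate 1 (0.37, edgeR adjusted p = 0.0416).

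The 8 *Ndufaf* genes encode factors that build complex I without remaining in it. Their summed level was 230.2, 186 and 167 CPM in HR1, 229.9, 185 and 241 CPM in LM1 and 127, 152 and 148 CPM in LM9, and all 3 LM9 tumours were below the lowest of the others. In LM9 versus HR1 3 fell, in LM9 versus LM1 3 fell, and in LM1 versus HR1 2 fell and 1 rose (medians -0.41, -0.74 and 0.31). Over all genes 21.9% fell, 10.6% fell, and 18.7% fell and 16.7% rose, and the shares in LM1 versus HR1 were close to these. With the length trend removed, 1 fell in each LM9 contrast (medians -0.17 and -0.48), and 3 rose and 2 fell in LM1 versus HR1. In the fit without HR1 replicate 1, 2 fell in LM9 versus HR1, 6 fell in LM9 versus LM1, and 5 rose and 2 fell in LM1 versus HR1. There 27.8% and 22.5% of all genes fell in the LM9 contrasts, and 26.9% rose and 26.0% fell in LM1 versus HR1. The shares that fell against HR1 were near those of all genes.

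*Ndufaf4* (chr4:24898083-24905001), whose promoter is printed above, was at 28.7, 35.8 and 24.2 CPM in the HR1 tumours, 53.8, 45.5 and 50.4 CPM in LM1 and 24.3, 29.9 and 26.6 CPM in LM9. The LM1 tumours were above all others, while HR1 and LM9 overlapped. It rose in LM1 versus HR1 (0.75 ± 0.17, edgeR adjusted p = 0.00996), fell in LM9 versus LM1 (-0.89 ± 0.17, edgeR adjusted p = 0.00906), and its LM9 versus HR1 value was -0.14 ± 0.17 (edgeR adjusted p = 0.548). *Ndufaf7* (chr17:78937136-78948052), a methyltransferase needed to build the complex, had another pattern, with 25.4, 34.9 and 32.4 CPM in the HR1 tumours, 13.4, 11.8 and 14.8 CPM in LM1 and 14.1, 15.8 and 16.5 CPM in LM9. Both LM models were below HR1 with no overlap, at -1.21 ± 0.17 (edgeR adjusted p = 0.00124) in LM1 and -1.001 ± 0.17 (edgeR adjusted p = 0.00243) in LM9, and LM9 did not pass against LM1 (0.21 ± 0.17, edgeR adjusted p = 0.395). *Ndufaf1* was the other factor that fell in both LM models versus HR1 (-0.64 and -0.55), and its LM9 value without HR1 replicate 1 was -0.44 (edgeR adjusted p = 0.0585).

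Complex II, succinate dehydrogenase, is also an enzyme of the TCA cycle and is wholly encoded in the nucleus. Its 4 genes together were at 1056, 919 and 784 CPM in HR1, 839.6, 734 and 983 CPM in LM1 and 557, 641 and 608 CPM in LM9, again with LM9 lowest. In LM9, 3 of 4 fell against HR1 (median -0.55) and 2 fell against LM1, where 21.9% and 10.6% of all genes fell. In LM1 versus HR1, 0 of 4 were called by edgeR, DESeq2 or limma-voom, and 0 had an unadjusted p below 0.05. The edgeR calls numbered the same without HR1 replicate 1, and the same with the length trend removed. In the 2 LM9 contrasts, 27.8% and 22.5% of all genes fell in the first of these settings, and 23.0% and 11.9% in the second.

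*Sdhc* (chr1:171127165-171150603), a membrane anchor, was at 290.3, 309 and 248 CPM in the HR1 tumours, 217, 182 and 283 CPM in LM1 and 120.3, 148 and 137 CPM in LM9. LM9 was below all other tumours, and LM1 overlapped with HR1. It fell in LM9 versus HR1 (-1.06 ± 0.18, edgeR adjusted p = 0.00253) and versus LM1 (-0.75 ± 0.18, edgeR adjusted p = 0.0213). *Sdhb*, the iron-sulphur subunit, was at 344, 241 and 229.9 CPM in the HR1 tumours, 279.6, 225 and 286 CPM in LM1 and 157, 185 and 167 CPM in LM9. It too fell against HR1 (-0.68 ± 0.18, edgeR adjusted p = 0.0182) and LM1 (-0.64 ± 0.18, edgeR adjusted p = 0.0394), with no overlap in either. *Sdha*, the flavoprotein, was at 208, 219 and 176 CPM in the HR1 tumours, 172, 179 and 201 CPM in LM1 and 146, 152 and 150.3 CPM in LM9, and fell in LM9 versus HR1 (-0.43 ± 0.13, edgeR adjusted p = 0.0256), its LM9 versus LM1 value being -0.30 ± 0.13 (edgeR adjusted p = 0.119). *Sdhd*, the second anchor, did not pass in any contrast, with 214, 150.2 and 130.1 CPM in the HR1 tumours, 170.3, 148 and 213 CPM in LM1 and 133, 156 and 154 CPM in LM9 and a LM9 versus HR1 value of -0.16 ± 0.21 (edgeR adjusted p = 0.575), or 0.08 (edgeR adjusted p = 0.7) without HR1 replicate 1.

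Complex III, the cytochrome *bc*1 complex, had summed levels of 2095, 1380 and 1178 CPM in HR1, 1570, 1291 and 1758 CPM in LM1 and 961, 1135 and 1099 CPM in LM9. LM9 was lowest, with LM9 replicate 2 close under HR1 replicate 3. In LM9, 3 of 8 genes fell against HR1 (*Uqcr10*, *Uqcrfs1* and *Uqcrb*; median -0.56) and 2 fell against LM1 (*Uqcrb* and *Uqcrc1*; median -0.54), where 21.9% and 10.6% of all genes fell. With the length trend removed, 1 fell against HR1 (median -0.27, or -0.06 with HR1 replicate 1 left out as well) and 2 against LM1 (median -0.19). In LM1 versus HR1, 0 were called by edgeR, DESeq2 or limma-voom, and 1 had an unadjusted p below 0.05. Without HR1 replicate 1, 2 fell in LM9 versus HR1, 7 fell in LM9 versus LM1, and 2 rose in LM1 versus HR1, beside 27.8%, 22.5% and 26.9% of all genes.

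*Uqcrfs1*, the Rieske iron-sulphur protein, was at 174, 186 and 153 CPM in the HR1 tumours, 155, 141 and 186 CPM in LM1 and 112, 126 and 126 CPM in LM9. LM9 was below all other tumours, with a value of -0.50 ± 0.14 (edgeR adjusted p = 0.0235) versus HR1 and -0.40 ± 0.14 (edgeR adjusted p = 0.0745) versus LM1, the latter passing without HR1 replicate 1 (-0.41, edgeR adjusted p = 0.0297). *Uqcrc1* (chr9:108936633-108949623), a core subunit, was at 363, 252 and 220.3 CPM in the HR1 tumours, 359, 329 and 429 CPM in LM1 and 205, 236 and 231 CPM in LM9. LM9 and HR1 overlapped while LM1 lay above LM9, and it fell in LM9 versus LM1 (-0.74 ± 0.20, edgeR adjusted p = 0.0316), its LM9 versus HR1 value being -0.32 ± 0.20 (edgeR adjusted p = 0.228). With HR1 replicate 1 left out, it also rose in LM1 versus HR1 (0.66, edgeR adjusted p = 0.00379), and its LM9 versus HR1 value was -0.08 (edgeR adjusted p = 0.664). *Uqcrb* (chr13:66900617-66905378), a small quinone-binding subunit, was at 39.2, 29.1 and 28.6 CPM in the HR1 tumours, 42.8, 39.2 and 47.5 CPM in LM1 and 21.6, 24.5 and 23.5 CPM in LM9. LM9 was below all other tumours and it fell against both (-0.48 ± 0.16, edgeR adjusted p = 0.0423 versus HR1, -0.90 ± 0.16, edgeR adjusted p = 0.00716 versus LM1), although 25.4% of its windows recur in another gene and without HR1 replicate 1 the first value was -0.31 (edgeR adjusted p = 0.067) and it rose in LM1 versus HR1 (0.59, edgeR adjusted p = 0.00453).

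Complex IV, cytochrome *c* oxidase, is the complex whose nuclear subunits have tissue and oxygen dependent isoforms. In LM9, 6 of 15 genes fell and 1 rose against HR1 (median -0.51) and 4 fell against LM1 (median -0.59), whereas in LM1 versus HR1 1 fell and 1 rose. Over all genes, 21.9% fell and 20.4% rose in LM9 versus HR1, 10.6% fell in LM9 versus LM1, and 18.7% fell and 16.7% rose in LM1 versus HR1. Removing the length trend moved the medians to -0.10 with 3 fallen and 1 risen in LM9 versus HR1 and to -0.18 with 4 fallen and 1 risen in LM9 versus LM1. Once HR1 replicate 1 was left out as well, a setting chosen after seeing the data, the LM9 versus HR1 median turned to 0.03, with 4 fallen and 3 risen. When HR1 replicate 1 alone was left out, the numbers were 4 fallen and 2 risen, 9 fallen and 1 risen, and 1 fallen and 4 risen, where 27.8%, 22.5% and 26.0% of all genes fell. Its summed level was 3487, 2638 and 2669 CPM in HR1, 2903, 2299 and 3139 CPM in LM1 and 2282, 2756 and 2698 CPM in LM9, which overlapped between the models. With *Ndufa4l2* left out, the sum was 3459, 2566 and 2037 CPM in HR1, 2718, 2117 and 2894 CPM in LM1 and 1533, 1813 and 1744 CPM in LM9, and LM9 then lay below every other tumour.

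*Ndufa4* (chr6:11900292-11907497), named for complex I but a subunit of complex IV, was at 243, 211 and 222 CPM in the HR1 tumours, 181, 141 and 182 CPM in LM1 and 67.2, 86.9 and 80.5 CPM in LM9. HR1 was highest and LM9 lowest, and no groups overlapped. The log2 fold change was -0.42 ± 0.15 (edgeR adjusted p = 0.0579) in LM1 versus HR1, -1.53 ± 0.16 (edgeR adjusted p = 0.000234) in LM9 versus HR1 and -1.10 ± 0.15 (edgeR adjusted p = 0.0027) in LM9 versus LM1, and without HR1 replicate 1 the LM9 versus HR1 value was -1.47 (edgeR adjusted p = 4.31e-05).

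Its paralogue *Ndufa4l2* (chr10:127514967-127517154), a HIF1 target known to lower complex I activity under low oxygen, had the opposite order of LM9 and LM1, at 28.6, 72.2 and 632 CPM in the HR1 tumours, 185, 182 and 245 CPM in LM1 and 749, 943 and 953 CPM in LM9. All LM9 tumours were above all others, but HR1 spanned a wide range, with replicate 3 nearest to LM9 and replicates 1 and 2 below LM1. The spread left the contrasts short of the threshold, at 1.85 ± 0.92 (edgeR adjusted p = 0.134) for LM9 versus HR1 and 2.11 ± 0.93 (edgeR adjusted p = 0.133) for LM9 versus LM1. Leaving out HR1 replicate 3 gave 4.13 (edgeR adjusted p = 0.000408) in LM9 versus HR1 and 2.02 (edgeR adjusted p = 0.00557) in LM1 versus HR1, where the value with all tumours was -0.26. Leaving out HR1 replicate 1 gave 1.33 (edgeR adjusted p = 0.138) in LM9 versus HR1. With limma-voom and all tumours, LM9 versus HR1 passed at 3.00 (limma adjusted p = 0.0276) and LM1 versus HR1 was 0.88 (limma adjusted p = 0.47). LM9 versus LM1 passed without HR1 replicate 1 (2.11, edgeR adjusted p = 0.0245) and without HR1 replicate 3 (2.11, edgeR adjusted p = 0.00411). Fitted without the HR1 tumours, LM9 versus LM1 was 2.10 (edgeR adjusted p = 7.71e-07), and leaving out 1 LM1 or LM9 tumour with HR1 included gave adjusted p-values of 0.221 to 0.283. As a ratio of CPM per kb within a tumour, *Ndufa4l2* to *Ndufa4* was 0.148, 0.431 and 3.58 in HR1, 1.29, 1.63 and 1.70 in LM1, and 14.1, 13.7 and 14.9 in LM9.

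*Cox6a2* (chr7:128205435-128206387), the striated muscle isoform, was the largest increase among the called members but at very low levels, with 0.133, 0.315 and 0.232 CPM in the HR1 tumours, 3.57, 2.17 and 3.18 CPM in LM1 and 4.36, 5.01 and 4.25 CPM in LM9. HR1 overlapped with neither LM model, with 4 to 14 reads per HR1 tumour against 96 to 219 in the others. It rose in LM1 (3.67 ± 0.40, edgeR adjusted p = 0.000398) and in LM9 (4.28 ± 0.41, edgeR adjusted p = 0.000174) versus HR1, and LM9 versus LM1 was 0.61 ± 0.35 (edgeR adjusted p = 0.234). The listed muscle markers *Acta1* and *Mylpf* were at no more than 6.84 and 3.38 CPM. Its ubiquitous partner *Cox6a1* was at 531, 321 and 265 CPM in the HR1 tumours, 381, 317 and 438 CPM in LM1 and 231, 259 and 264 CPM in LM9. LM9 was lowest, LM9 replicate 3 just below HR1 replicate 3, and no contrast passed (LM9 versus HR1 -0.57 ± 0.25, edgeR adjusted p = 0.0973). In the fit without HR1 replicate 1, the value was -0.22 (edgeR adjusted p = 0.249), and it fell in LM9 versus LM1 (-0.60, edgeR adjusted p = 0.00689). *Cox7a1*, another muscle isoform, was at 3.26, 0.653 and 0.952 CPM in the HR1 tumours, 1.24, 1.13 and 1.93 CPM in LM1 and 2.19, 2.61 and 2.05 CPM in LM9, and no contrast passed (LM9 versus HR1 0.50 ± 0.58, edgeR adjusted p = 0.508), but without HR1 replicate 1, its highest tumour, LM9 versus HR1 was 1.51 (edgeR adjusted p = 0.00827).

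The ubiquitous *Cox7a2* was at 283, 133 and 115 CPM in the HR1 tumours, 204, 153 and 205 CPM in LM1 and 103, 120.4 and 121 CPM in LM9. The values in HR1 replicate 1 were above all others and no contrast passed (LM9 versus HR1 -0.62 ± 0.31, edgeR adjusted p = 0.139). Without HR1 replicate 1 the value was -0.11 (edgeR adjusted p = 0.565), and it fell in LM9 versus LM1 (-0.71, edgeR adjusted p = 0.00282) and rose in LM1 versus HR1 (0.60, edgeR adjusted p = 0.00968). *Cox7a2l* (chr17:83501918-83517330), which joins complexes III and IV into supercomplexes, was at 141, 159 and 111 CPM in the HR1 tumours, 60.4, 51.9 and 69.9 CPM in LM1 and 73.5, 89.1 and 75.8 CPM in LM9. The order here was HR1, LM9, LM1 with no overlap, and it fell in both LM models, at -1.17 ± 0.18 (edgeR adjusted p = 0.00164) in LM1 and -0.78 ± 0.18 (edgeR adjusted p = 0.00817) in LM9 versus HR1 and 0.39 ± 0.18 (edgeR adjusted p = 0.141) in LM9 versus LM1.

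Among the remaining subunits, *Cox4i1*, the ubiquitous isoform of the largest nuclear subunit, was at 898, 626 and 383 CPM in the HR1 tumours, 637, 491 and 699 CPM in LM1 and 327, 385 and 373 CPM in LM9. It fell in LM9 versus HR1 (-0.81 ± 0.28, edgeR adjusted p = 0.0458), although LM9 replicate 2 reached the lowest HR1 tumour, and without HR1 replicate 1 the value was -0.48 (edgeR adjusted p = 0.0798) and it fell in LM9 versus LM1 (-0.76, edgeR adjusted p = 0.0104). *Cox5a* was at 151, 145 and 113 CPM in the HR1 tumours, 146, 113 and 145 CPM in LM1 and 83.0, 96.8 and 91.8 CPM in LM9, with LM9 below all others, and fell against HR1 (-0.59 ± 0.16, edgeR adjusted p = 0.0184) and LM1 (-0.57 ± 0.16, edgeR adjusted p = 0.0352). *Cox5b*, its partner in the matrix-facing part, fell against LM1 (-0.95 ± 0.19, edgeR adjusted p = 0.00998) and had -0.46 ± 0.19 (edgeR adjusted p = 0.0738) against HR1, and it rose in LM1 versus HR1 without HR1 replicate 1 (0.54, edgeR adjusted p = 0.0406). *Cox7b* was at 219, 154 and 181 CPM in the HR1 tumours, 195, 155 and 201 CPM in LM1 and 116, 134 and 139 CPM in LM9, and its LM9 versus HR1 value of -0.51 ± 0.17 (edgeR adjusted p = 0.0385) became -0.37 (edgeR adjusted p = 0.0561) without HR1 replicate 1, where it fell in LM9 versus LM1 (-0.51, edgeR adjusted p = 0.0121).

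The small subunits *Cox6b1* and *Cox8a* did not pass in any contrast with all tumours. *Cox6b1* was at 380.0, 163 and 134 CPM in the HR1 tumours, 272, 211 and 290.5 CPM in LM1 and 148, 194 and 162 CPM in LM9, and its LM9 versus HR1 value was -0.42 ± 0.36 (edgeR adjusted p = 0.365) with all tumours and 0.18 (edgeR adjusted p = 0.389) without HR1 replicate 1. It then rose in LM1 versus HR1 (0.81, edgeR adjusted p = 0.0038) and fell in LM9 versus LM1 (-0.62, edgeR adjusted p = 0.00913). *Cox8a* was at 215, 292 and 246 CPM in the HR1 tumours, 249.8, 201 and 273 CPM in LM1 and 202, 228 and 222 CPM in LM9, with a LM9 versus HR1 value of -0.21 ± 0.16 (edgeR adjusted p = 0.329). The isoforms *Cox4i2*, *Cox6b2*, *Cox7b2*, *Cox8b* and *Cox8c* were not analysed here.

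**Figure D3:**
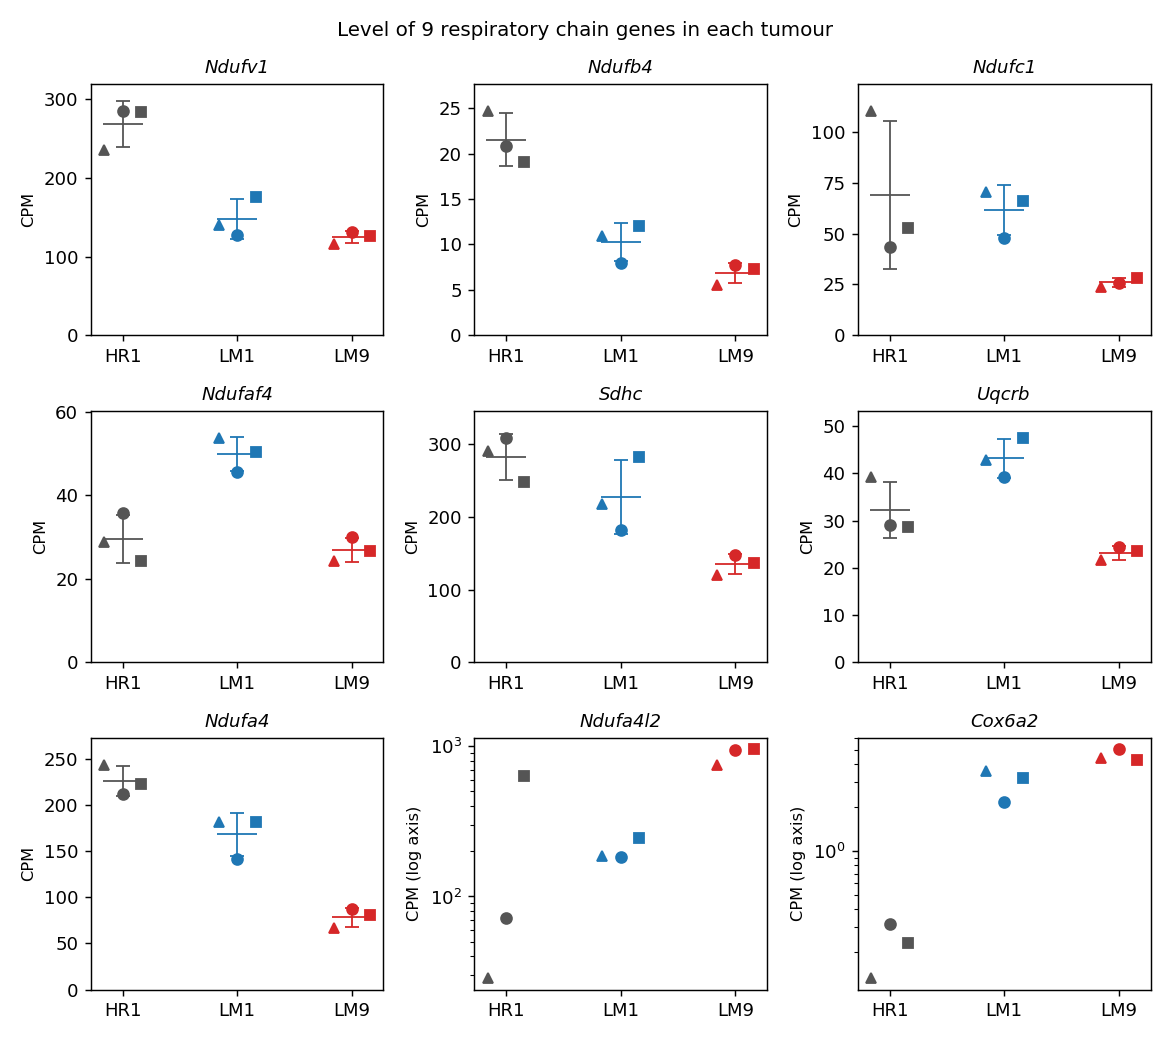
Level in CPM of 9 respiratory chain genes in each tumour (triangle, circle and square for replicates 1, 2 and 3; bars show mean ± s.d.; the axes of *Ndufa4l2* and *Cox6a2* are logarithmic, without bars). *Ndufa4* is lowest and *Ndufa4l2* highest in LM9, and *Cox6a2* is at no more than 0.315 CPM in HR1.

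Complex V, the ATP synthase, had the highest summed level of the complexes, 6859, 6576 and 5402 CPM in HR1, 5764, 5041 and 6485 CPM in LM1 and 4223, 5107 and 4881 CPM in LM9. All LM9 tumours but replicate 2 were below all others. In LM9, 4 of 16 genes fell against HR1 (median -0.64) and 4 fell against LM1 (median -0.66), and both sets include *Atp5g3*, *Atp5j2* and *Atp5mpl*. The share that fell against HR1 was close to that over all genes (21.9%), while against LM1 10.6% of all genes fell. With the length trend removed, 4 and 3 fell, with medians of -0.35 and -0.45. In LM1 versus HR1, 0 were called by edgeR, DESeq2 or limma-voom, and 3 had an unadjusted p below 0.05. With HR1 replicate 1 left out, the numbers that fell in LM9 were 4 and 8, and 3 genes rose in LM1 versus HR1. Of all genes, 27.8% and 22.5% then fell and 26.9% rose, so the shares in both contrasts with HR1 lay below those of all genes.

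The large subunits of the catalytic head passed in no pairwise contrast. *Atp5b* (chr10:128083273-128090391) was at 2214, 2726 and 2204 CPM in the HR1 tumours, 2243, 2205 and 2726 CPM in LM1 and 1849, 2191 and 2125 CPM in LM9. LM9 lay below the others, LM9 replicate 2 only just below LM1 replicate 2, with a LM9 versus HR1 value of -0.21 ± 0.16 (edgeR adjusted p = 0.301). *Atp5a1*, the α subunit, was at 1030 to 1192 CPM in HR1, 758 to 989.9 CPM in LM1 and 796 to 961 CPM in LM9. HR1 was above both LM models, which overlapped, and its LM9 versus HR1 value was -0.30 ± 0.15 (edgeR adjusted p = 0.145). LM9 versus LM1 gave -0.22 ± 0.16 (edgeR adjusted p = 0.341) for *Atp5b* and 0.05 ± 0.15 (edgeR adjusted p = 0.832) for *Atp5a1*.

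*Atp5g3* encodes the proton-carrying c subunit of the membrane ring and was at 530.1, 524 and 373 CPM in the HR1 tumours, 478, 387 and 499.8 CPM in LM1 and 255, 333 and 293 CPM in LM9. LM9 was below all others, with -0.69 ± 0.19 (edgeR adjusted p = 0.0173) versus HR1 and -0.63 ± 0.19 (edgeR adjusted p = 0.042) versus LM1. *Atp5mpl* (chr12:111961375-111966977), a small membrane subunit, was at 158, 171 and 129 CPM in the HR1 tumours, 143, 104 and 147 CPM in LM1 and 60.1, 74.5 and 70.4 CPM in LM9. It had the lowest LM9 to HR1 ratio in the complex, -1.16 ± 0.18 (edgeR adjusted p = 0.00152), and LM9 versus LM1 was -0.94 ± 0.18 (edgeR adjusted p = 0.00831). *Atp5pb*, of the peripheral stalk, fell in LM9 versus LM1 (-0.70 ± 0.16, edgeR adjusted p = 0.0176) and *Atp5j*, of the same stalk, in LM9 versus HR1 (-0.80 ± 0.21, edgeR adjusted p = 0.0163). When HR1 replicate 1 was left out, *Atp5pb* rose in LM1 versus HR1 (0.54, edgeR adjusted p = 0.00787) and *Atp5j* fell in LM9 versus LM1 (-0.50, edgeR adjusted p = 0.0194).

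The inhibitor *Atpif1*, which the symbol rule does not match, was at 313, 180.1 and 116 CPM in the HR1 tumours, 159, 127 and 164 CPM in LM1 and 84.1, 101 and 99.8 CPM in LM9. LM9 was below all others, and it fell in LM9 versus HR1 (-1.10 ± 0.31, edgeR adjusted p = 0.022), its LM9 versus LM1 value being -0.66 ± 0.31 (edgeR adjusted p = 0.158). In the fit without HR1 replicate 1, its highest tumour, these were -0.64 (edgeR adjusted p = 0.017) and -0.66 (edgeR adjusted p = 0.0118).

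*Atp5g1*, a second gene for the same c subunit, was at 2.63, 1.31 and 0.978 CPM in the HR1 tumours, 2.18, 1.18 and 1.32 CPM in LM1 and 0.665, 0.916 and 0.9 CPM in LM9, and *Atp5md* at 0.997, 1.28 and 1.24 CPM in the HR1 tumours, 1.49, 0.657 and 1.07 CPM in LM1 and 0.773, 1.08 and 1.17 CPM in LM9. Together with *Atp5l* (0 to 0.34 CPM) and *Cox7c* (0.16 to 0.711 CPM), they were listed at levels far below those of most other subunits, in the range of the isoforms *Cox6a2* and *Cox7a1* or below it. These genes have 11.1%, 7.97%, 8.73% and 22.1% of their windows in other genes, so their levels are uncertain. None of these 4 genes passed in a pairwise contrast with all tumours.

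Respiratory chain genes are short, with a median exon length of 1718 bases against 4400 over all genes, and fold changes followed length in these libraries. Over all genes, the Spearman correlation of exon length with log2 fold change was 0.18 in LM9 versus HR1 and 0.19 in LM9 versus LM1 (13493 genes, which share the 9 libraries). Over the members it was -0.04 and -0.02 (87 genes). In LM9 versus LM1, the 20 members under 1000 bases had a median of -0.60, the 34 of 1000 to 2000 bases -0.57 and the 33 longer ones -0.55. Genes at large had -0.34, -0.30 and 0.04 in these classes. With the length trend removed, 29 members fell in LM9 versus HR1 (23.0% of all genes, member median -0.31) and 17 in LM9 versus LM1 (11.9% of all genes, member median -0.32). In each of these contrasts 68 of 87 member values were then negative. With HR1 replicate 1 left out as well, a setting chosen after seeing the data, 32 fell and 9 rose in LM9 versus HR1 (57.5% of all genes in both directions, member median -0.20), and 42 fell and 7 rose in LM9 versus LM1 (46.7% of all genes, member median -0.32).

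**Figure D4:**
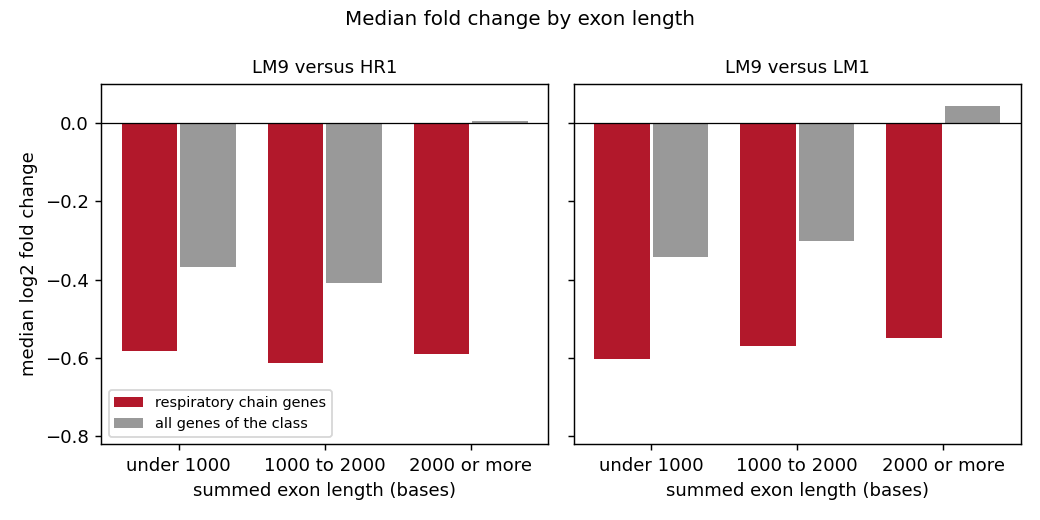
Median log2 fold change of respiratory chain genes and of all genes in 3 classes of summed exon length, in LM9 versus HR1 and LM9 versus LM1. In these contrasts the members have medians near -0.6 in every class, whereas the median of all genes is negative only below 2000 bases.

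Near-identical copies could also have split the reads of some members. Of the 87 members with transcripts in the annotation, 21 had over 5% of their 50-base windows in another gene. Their median in LM9 versus LM1 was -0.67, against -0.51 for the other 66, and in LM9 versus HR1 it was -0.53 against -0.62. The pseudogene *Ndufs5-ps* was listed at 26.3, 16.5 and 17.8 CPM in the HR1 tumours, 25.5, 18.0 and 21.8 CPM in LM1 and 12.5, 14.1 and 14.9 CPM in LM9, a range like that of *Ndufs5* itself (13.3 to 24.0 CPM), and passed in no contrast with all tumours (LM9 versus LM1 -0.65 ± 0.22, edgeR adjusted p = 0.0622), but without HR1 replicate 1 it fell in LM9 versus LM1 (-0.66, edgeR adjusted p = 0.00727).

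Other genes of mitochondrial metabolism were read from the same fit, in which 21.9% of all genes fell in LM9 versus HR1 and 10.6% in LM9 versus LM1. Of 41 assembly factors of the chain outside the symbol rule, 14 fell and 0 rose in LM9 versus HR1 (median -0.45) and 9 fell in LM9 versus LM1 (median -0.35). Of 19 genes for electron carriers and their synthesis, 7 fell and 1 rose in LM9 versus HR1 and 5 fell in LM9 versus LM1. Cytochrome *c* (*Cycs*) was among the former, at 6.28, 7.41 and 8.11 CPM in the HR1 tumours, 7.96, 3.83 and 6.12 CPM in LM1 and 2.94, 3.89 and 2.59 CPM in LM9 and -1.21 ± 0.32 (edgeR adjusted p = 0.0163). Of 18 genes of the TCA cycle and pyruvate entry, 9 fell in LM9 versus HR1, among them the pyruvate carrier *Mpc2* (-1.44 ± 0.24, edgeR adjusted p = 0.00207), and 1 fell in LM9 versus LM1 (*Idh3a*, -0.48 ± 0.13, edgeR adjusted p = 0.029), a smaller share than over all genes. Without HR1 replicate 1 the numbers fallen and risen were 19 and 1, 8 and 1, and 10 and 3 for these 3 lists in LM9 versus HR1, and 15 and 1, 9 and 1, and 7 and 2 in LM9 versus LM1, where *Mpc2* was at -0.75 (edgeR adjusted p = 0.00703). Of all genes, 27.8% fell in LM9 versus HR1 and 22.5% in LM9 versus LM1 in that fit.

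Of 77 mitochondrial ribosomal protein genes, 24 fell and 0 rose in LM9 versus LM1 (median -0.50), and in LM9 versus HR1 23 fell and 3 rose (median -0.35). Cytosolic ribosomal protein genes, which are also short, had medians of -0.57 and -0.52 in the same contrasts, with 6 and 26 of 78 fallen and 0 and 3 risen. In LM9 versus LM1 that share was below the 10.6% over all genes. With HR1 replicate 1 left out, 45 mitochondrial and 41 cytosolic ribosomal protein genes fell in LM9 versus LM1 (22.5% of all genes), and 1 of each rose. In LM9 versus HR1, 30 and 25 fell (27.8% of all genes) and 3 and 4 rose, and the cytosolic share that fell was near that of all genes. Of the 15 genes of the outer membrane and import, 5 fell and 1 rose in LM9 versus LM1 (median -0.52, 12 of 15 values negative), and 3 fell and 2 rose in LM9 versus HR1 (median -0.10). Without HR1 replicate 1, 9 fell and 2 rose, and 5 fell and 2 rose, where 22.5% and 27.8% of all genes fell. The channel *Vdac1* gave 0.14 ± 0.14 (edgeR adjusted p = 0.491) in LM9 versus LM1, the receptor *Tomm20* fell (-0.52 ± 0.15, edgeR adjusted p = 0.0421) and the import motor *Hspa9* was the 1 that rose (1.11 ± 0.26, edgeR adjusted p = 0.0175).

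Genes that restrain respiration or remove mitochondria under low oxygen went the opposite way in LM9. Of 8 listed, which include *Ndufa4l2*, 6 rose and 0 fell in LM9 versus LM1 (median 1.37), and 5 rose in LM9 versus HR1 (median 1.27). When HR1 replicate 1 was left out, these numbers were 7 and 6. Over all genes 11.5% rose in LM9 versus LM1 and 20.4% in LM9 versus HR1 (27.9% without HR1 replicate 1). In LM1 versus HR1 the list went both ways, with 2 risen and 1 fallen (median -0.12). *Bnip3*, a mitophagy receptor, was at 36.9, 38.1 and 55.1 CPM in the HR1 tumours, 45.0, 41.3 and 52.8 CPM in LM1 and 131, 153 and 128 CPM in LM9, with LM9 above all others and 1.57 ± 0.19 (edgeR adjusted p = 0.00146) versus LM1. *Pdk1*, which shuts pyruvate out of the TCA cycle, was at 49.6, 94.7 and 145 CPM in the HR1 tumours, 54.2, 51.1 and 57.6 CPM in LM1 and 122, 139 and 132 CPM in LM9. It rose in LM9 versus LM1 (1.27 ± 0.32, edgeR adjusted p = 0.0237), but HR1 replicate 3 had the highest value of all and the LM9 versus HR1 value was 0.44 ± 0.31 (edgeR adjusted p = 0.286), or 0.13 (edgeR adjusted p = 0.546) without HR1 replicate 1. *Higd1a* rose against both (LM9 versus LM1 0.87 ± 0.17, edgeR adjusted p = 0.00898). *Pdk3* was instead higher in both LM models than in HR1 (3.05 ± 0.25, edgeR adjusted p = 0.000141 in LM1).

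Of 14 regulators of mitochondrial biogenesis, 0 were called in LM9 versus LM1 by edgeR, 1 by DESeq2 and 1 by limma-voom, and 1 had an unadjusted p below 0.05. *Nrf1* was at 36.9 to 42.7 CPM in HR1, 39.3 to 44.3 CPM in LM1 and 36.8 to 39.2 CPM in LM9. *Tfam*, which packages and transcribes mitochondrial DNA, was at 69.2, 45.5 and 46.5 CPM in the HR1 tumours, 56.6, 48.8 and 55.1 CPM in LM1 and 43.6, 46.0 and 49.0 CPM in LM9. HR1 overlapped with both LM models for both genes, and no pairwise contrast passed (LM9 versus HR1 -0.10 ± 0.12, edgeR adjusted p = 0.544 and -0.22 ± 0.18, edgeR adjusted p = 0.349). In the fit without HR1 replicate 1, these values were -0.16 (edgeR adjusted p = 0.256) and 0.01 (edgeR adjusted p = 0.952). *Gabpa* fell in LM1 and LM9 versus HR1 (-0.60 ± 0.14, edgeR adjusted p = 0.00928 and -0.61 ± 0.14, edgeR adjusted p = 0.00745), and *Myc* rose (1.28 ± 0.23, edgeR adjusted p = 0.00339 and 1.71 ± 0.23, edgeR adjusted p = 0.000837). The coactivator *Ppargc1a* was not analysed here.

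**Figure D5:**
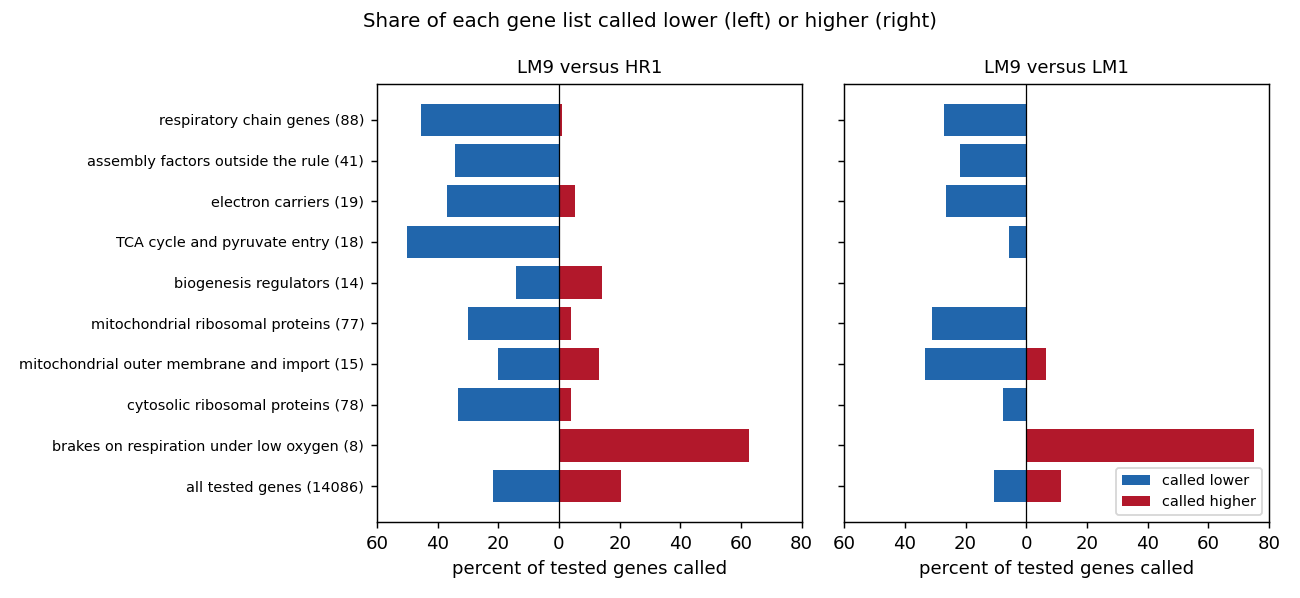
Percent of the tested genes of each list called lower (bars to the left) or higher (to the right) in LM9 versus HR1 and LM9 versus LM1, with the number tested in brackets. Of the respiratory chain genes called, 40 of 41 and 24 of 24 were lower in LM9, while of the 8 brakes on respiration 5 and 6 were called higher.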

How the data were processed

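Per the labels and the study's methods, the authors aligned 50-base single-end reads of stranded poly(A) libraries to mm10 with STAR and counted read 5′ ends over the exon union of each gene with QuasR, and the deposited values are these raw counts, 1 table per tumour. Libraries held 32393958 to 46681945 counts, and the spread between tumours, rather than counting error, set the precision. Genes carry Entrez numbers, named through RefSeq (GRCm38.p6), and 14085 of 14108 matched. Exon lengths, positions and 50-base windows shared with other genes came from GENCODE M21 on the same build.

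All 9 tumours were fitted with edgeR 4.0.16 (TMM, filterByExpr, robust quasi-likelihood test, 1 coefficient per model), with Benjamini-Hochberg adjustment over 14086 genes and a threshold of 0.05. Errors of log2 fold changes are standard errors of the fit. CPM used TMM library sizes. The fit was tested on simulated data. Each tumour grew from 1 line per model, so p-values measure the spread between tumours of a line. Alternatives were RLE or library size scaling, other filters, DESeq2 1.42.0, limma-voom (limma 3.58.1), no robust step, a replicate block, the compared tumours alone, a length trend removed, and each tumour left out. Members and lists were chosen with earlier results of these data known. Named were fixed catalytic subunits and isoform sets, the 4 called members with the largest increase and the 4 with the largest decrease in each pairwise contrast (mean of at least 1 CPM), and genes whose symbol differs between versions. Other genes named here, such as *Uqcrb*, *Uqcr10*, *Cox5b*, *Atp5mpl*, *Atp5pb*, *Atp5j*, *Ndufv2*, *Ndufv3*, *Ndufs3*, *Ndufs7*, *Ndufs8*, *Ndufa6*, *Ndufaf1* and genes outside the rule, were chosen after their values were seen. Of the genes matching the rule in RefSeq, 27 were not analysed here, 9 of them protein coding (*Atp5g2*, *Cox4i2*, *Cox6b2*, *Cox7b2*, *Cox8b*, *Cox8c*, *Ndufb1*, *Ndufb4b* and *Ndufb4c*). A gene of the naming rule is not reported here.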

Additional observations from a re-analysis of the deposited data

Results flagged for a closer look

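In 7 respiratory chain genes the log2 fold changes of LM1 and LM9 versus HR1 had opposite signs, at least 1 of them passed the test, and the difference between LM9 and LM1 itself passed edgeR's quasi-likelihood test. Since this difference is part of the rule that picked the 7, its p-values below are no further support. The share of all genes that meet the rule was not counted. In all 7 the sign was positive in LM1 and negative in LM9, and of the LM1 values that of *Ndufaf4* passed the test. *Ndufb7* stood at 0.04 in LM1 and -1.04 in LM9, a difference of -1.08 ± 0.29 (edgeR adjusted p = 0.0309). *Ndufaf4* stood at 0.75 in LM1 and -0.14 in LM9, a difference of -0.89 ± 0.17 (edgeR adjusted p = 0.00906). *Uqcrb* stood at 0.42 in LM1 and -0.48 in LM9, a difference of -0.90 ± 0.16 (edgeR adjusted p = 0.00716). For *Ndufb7* the LM1 value is near 0, and for *Uqcrb* the LM1 tumours were above and the LM9 tumours below every HR1 tumour. *Ndufs6* stood at 0.10 in LM1 and -0.78 in LM9, a difference of -0.88 ± 0.23 (edgeR adjusted p = 0.0265). *Ndufaf5* stood at 0.19 in LM1 and -0.54 in LM9, a difference of -0.73 ± 0.19 (edgeR adjusted p = 0.0274). *Ndufa5* stood at 0.10 in LM1 and -0.62 in LM9, a difference of -0.73 ± 0.18 (edgeR adjusted p = 0.0242). *Ndufb3* stood at 0.07 in LM1 and -0.60 in LM9, a difference of -0.66 ± 0.17 (edgeR adjusted p = 0.0269). The 2 fold changes of each gene share the HR1 tumours, whereas their difference does not use the HR1 levels.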

How the results depend on the processing

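With all tumours and the counts scaled by TMM, 12 members were called in LM1 versus HR1, 41 in LM9 versus HR1, 24 in LM9 versus LM1 and 27 in LM1 and LM9 together versus HR1. In LM1 versus HR1 the number was 20 with the gene length trend removed, 42 with HR1 replicate 1 left out as well (a setting chosen after seeing the data), and 8 to 31 when 1 tumour was left out, the highest without HR1 replicate 1. In LM9 versus HR1 it was 20 to 49 when 1 tumour was left out, lowest without LM9 replicate 1. In LM9 versus LM1 it was 37 with DESeq2, 69 with only the LM1 and LM9 tumours fitted, 49 with the length trend and HR1 replicate 1 both removed, and 4 to 59 when 1 tumour was left out (4, 6 and 5 without LM9 replicates 1, 2 and 3, 5 without LM1 replicate 1 or 3, and 59 without HR1 replicate 1). The cause of these shifts was not tested, beyond the fewer tumours. The replicate block, with the replicate number as a term, gave 10, 33, 10 and 22 calls in the 4 comparisons, but deviations of samples that share a number correlated at -0.117 to 0.162, so the numbers do not pair the tumours. The log2 fold change of *Ndufa4l2* in LM1 versus HR1, when 1 tumour was left out, ranged from -0.78 without HR1 replicate 1 to 2.02 without HR1 replicate 3. That of *Cox6b1* in LM1 and LM9 together versus HR1, likewise, ranged from -0.38 without HR1 replicate 3 to 0.49 without HR1 replicate 1. With the length trend and HR1 replicate 1 both removed, values turned from negative to positive and passed the test for *Cox6b1* (0.50) and *Sdhd* (0.35) in LM9 versus HR1, *Cox8a* (0.31) in LM9 versus LM1, and *Cox6b1* (0.60), *Cox7a2* (0.35) and *Sdhd* (0.33) in LM1 and LM9 together versus HR1. Over the named genes and all settings, 2374 values kept their direction and side of the threshold or were called in neither setting, 97 passed it newly, 116 no longer passed and 8 turned sign with a call. Depth limits the genes listed near 0, such as *Cox6a2* in HR1 (4 to 14 reads per tumour).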

Other observations

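Symbols change between annotation versions, and 5 genes belong to the respiratory chain by one version of their symbol and not by another. *Emc8*, formerly *Cox4nb*, whose product belongs to a membrane protein insertion complex of the endoplasmic reticulum, was at 77.9, 85.9 and 56.0 CPM in the HR1 tumours, 120.0, 99.6 and 121 CPM in LM1 and 42.7, 51.9 and 46.1 CPM in LM9. LM1 was above and LM9 below every HR1 tumour, with log2 fold changes of 0.63 ± 0.18 (edgeR adjusted p = 0.024) in LM1 versus HR1, -0.64 ± 0.18 (edgeR adjusted p = 0.0199) in LM9 versus HR1 and -1.28 ± 0.18 (edgeR adjusted p = 0.00282) in LM9 versus LM1. *Dmac2*, formerly *Atp5sl*, passed in no pairwise contrast with all tumours (LM9 versus LM1 -0.45 ± 0.28 (edgeR adjusted p = 0.276)), but rose in LM1 versus HR1 without HR1 replicate 1 (0.70, edgeR adjusted p = 0.0248). *Dmac2l*, formerly *Atp5s*, was at 5.29 to 7.85 CPM in HR1 and 3.48 to 3.67 CPM in LM9, and fell in LM9 versus HR1 (-0.86 ± 0.24 (edgeR adjusted p = 0.0207)). The other 2, *Ndufs5-ps* and *Atp5md* (formerly *Usmg5*), are counted among the 88 members.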
